A study of Mus musculus with 267 samples.

Results

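The 3 resistin-like genes of the mouse, Retnlb, Retnla and Retnlg, lie in a row on the forward strand of chromosome 16 (mm10 build, GENCODE vM21 annotation). Retnlb (ENSMUSG00000022650.7) spans chr16:48816856-48818892, Retnla (ENSMUSG00000061100.4) chr16:48842551-48844461 and Retnlg (ENSMUSG00000022651.6) chr16:48872621-48874496. The Retnlb and Retnla starts are 25.7 kb apart and the Retnla and Retnlg starts 30.1 kb apart. All rows of the deposited tag tables and all peaks of the factor lists whose centre lay within 50 kb of one of these starts were taken, and no measured value entered the choice. This gave 18 of 423610 table rows and 139 of 1958714 peaks. The farthest peak taken lay 43.4 kb from a start and the nearest peak left out 62.2 kb, so no signal straddled the limit. The only other gene reaching into the window was Trat1, whose start lies 44.8 kb before that of Retnlb.

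Resistin-like molecules are small secreted proteins rich in cysteine. Retnla, also called Fizz1 or RELMα, is among the best known genes switched on in mouse macrophages by interleukin-4 (IL-4), while Retnlb is known from goblet cells of the gut and Retnlg from neutrophils and bone marrow. IL-4 acts through its receptor on STAT6, a transcription factor that enters the nucleus and binds DNA when phosphorylated. PPARγ, a nuclear receptor, and EGR2 act in IL-4-treated macrophages beside the lineage factors PU.1 and C/EBPβ, which are bound in macrophages before any stimulus.

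The study sequenced DNA pulled down with antibodies (ChIP-seq) from bone marrow-derived macrophages, which were grown with M-CSF from adult female mice. Of the 5 strains, SPRET/EiJ (SPRET) and PWK/PhJ (PWK) are wild-derived, and C57BL/6J (C57), BALB/cJ (BALB) and NOD/ShiLtJ (NOD) are laboratory strains. Cells were untreated (basal) or received 20 ng/mL IL-4 for 24 h, and C57 cells also for 1 h and 6 h. H3K27ac, H3K4me2 and H3K4me3 mark active or poised regulatory DNA and RNA polymerase II (Pol II) marks transcribed DNA, and each was deposited as tags in 1000 bp around open-chromatin regions, scaled to 10000000 tags per library (normalized tags). STAT6, PPARγ, EGR2, PU.1 and C/EBPβ were deposited as 1 list of replicated peaks for each strain and condition. A further experiment compared Egr2flfl macrophages with LyzMCreEgr2flfl macrophages, in which Cre from the myeloid LyzM gene deletes Egr2 on a floxed background that the controls share, in 2 tables of 4677 EGR2 sites each. Neither table held a site in the cluster, so no effect of Egr2 loss was measured here. The labels do not tie libraries to separate mice, and each list stands for its group with no replicate of its own. In such bulk libraries fewer cells with a mark and less of it per cell cannot be told apart.

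Libraries of the tag tables held 4691640 to 29050500 tags, and 1 read was worth 0.344 to 2.13 normalized tags. Of the macrophage marker genes Csf1r, Adgre1, Itgam, Cd68, Spi1, Mertk and Fcgr1, 7 of 7 had a C57 region within 1 kb of their start. Among listed genes of other cell types, 3 of 10 for neutrophils and 1 of 4 for eosinophils had one too. So did 1 of 3 for B cells and 1 of 3 for fibroblasts, and none for mast cells, T cells or epithelium. None of the 3 resistin-like genes had such a region in any of the 5 strain tables or in the C57 time course, whereas 46.7% to 56.0% of 21951 protein-coding genes did. The nearest region to the Retnla start lay 8.7 to 8.8 kb before it in BALB, NOD and PWK, 13.3 kb before it in SPRET and 23.8 kb before it in C57. Histone marks and Pol II were therefore not measured at these promoters, and no element of the cluster met the rule that would have named it.

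The promoter sequence is shown first because the peaks of the cluster that recurred in most strains at 24 h alone fell on it. RefSeq promoters (GRCm38.p6, which has the coordinates of mm10) were given for Retnla and Retnlg, and Retnlb was not in that table. The Retnla stretch runs from chr16:48842359 to chr16:48842550 and ends 1 base before the annotated start, and the Retnlg stretch runs from chr16:48872358 to chr16:48872607 and ends 14 bases before it. Capitals mark matches to TTC and GAA with 4 bases between them, the spacing STAT6 binds, and to TTGC and AA with 2 bases between them, a core of C/EBP sites, on either strand.

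Retnla: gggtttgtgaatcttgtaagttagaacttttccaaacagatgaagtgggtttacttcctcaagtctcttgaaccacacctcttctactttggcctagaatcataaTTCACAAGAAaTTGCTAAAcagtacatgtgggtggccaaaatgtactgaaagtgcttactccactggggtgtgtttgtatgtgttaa

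Retnlg: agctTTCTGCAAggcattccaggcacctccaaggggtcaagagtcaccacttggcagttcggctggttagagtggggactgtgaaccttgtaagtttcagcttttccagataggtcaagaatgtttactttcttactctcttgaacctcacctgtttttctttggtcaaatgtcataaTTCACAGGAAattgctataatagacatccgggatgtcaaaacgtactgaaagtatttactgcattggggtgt

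In Retnla the STAT6 spacing began 87 bases before the start and the C/EBP core 76 bases before it. Among 32851 RefSeq promoters of 300 bases, 6.95% held the STAT6 spacing and 10.8% the C/EBP core. With the STAT6 matches placed on each other and no gaps, the Retnla and Retnlg promoters were identical at 148 of 227 bases (65.2%). Over the 19 bases that carry both motifs in Retnla they were identical at 17. The differences, counted from 1 at the first base of the STAT6 match with the Retnla base first, were A7G and A18T, and A18T falls in the C/EBP core, so that the Retnlg copy did not match it.

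Retnla half-site: ctAGGTCAgcaatcccatggcgTATAAA

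This last stretch, chr16:48842557-48842584, is shown because it carries AGGTCA, the half-site of nuclear receptors such as PPARγ, and a TATA box (TATAAA), both in capitals. It lies just after the GENCODE start and before the RefSeq start, which is 58 bases downstream. The half-site was held by 16.3% of RefSeq promoters and TATAAA by 13.6%. The full PPAR repeat of 2 AGGNCA half-sites with 1 base between them was found in neither promoter, against 0.381% of all promoters. The EGR core GNGTGGGNG, held by 14.3% of promoters, was also found in neither window. Retnlg held AGGTCA 2 times and no TATAAA.

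At 24 h of IL-4, PPARγ had a peak at the Retnla promoter in all 5 strains, and no basal PPARγ list had one. The peak centres lay 123 to 28 bases before the start. PPARγ counts can be fractional and their scaling is not given, so they are not compared with counts of other factors. The tag count given for this peak was 60.3 in NOD, 49.8 in PWK, 48.4 in SPRET, 39.9 in C57 and 19.5 in BALB. Peaks with a higher count made up 14.1% of the NOD list, 21.1% of C57, 26.3% of PWK, 36.4% of SPRET and 55.4% of BALB. The BALB peak was thus in the lower part of its list and the others in the upper part.

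The pattern of a PPARγ peak within 1 kb in all 5 lists at 24 h and in no basal list was shared by 24 of 21951 protein-coding starts (0.109%). Of 20 listed genes of alternative macrophage activation, the chemokine gene Ccl17 had it. The pattern is the one Retnla itself showed, so its share describes Retnla and is not a test. PPARγ lists were longer at 24 h than at basal in BALB, C57, NOD and PWK, for example 39088 against 7627 peaks in C57, and slightly shorter in SPRET with 18487 against 19684. With the longer list of each strain held to the length of the shorter, by score or by tag count, the PPARγ peak stayed in NOD, PWK and SPRET and was lost in BALB and C57. In these 2 strains the absence of a basal peak cannot be told apart from the shorter basal list.

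STAT6 had a peak at the same site at 24 h in NOD, PWK and SPRET. The PWK peak was the highest, with a count of 70 and 16.6% of its list above it, while SPRET had a count of 46 (38.2% above) and NOD 25 (51.3% above). No basal STAT6 list and neither the 1 h nor the 6 h C57 list held a peak there. The C57 list held none at 24 h either, and the other strains had no 1 h or 6 h list. The time course therefore does not date these peaks. A STAT6 peak in 3 or more 24 h lists and in no basal list was found at 150 protein-coding starts (0.683%), among them those of Ccl17, Cish, Pdcd1lg2 and Slc7a2 from the list of 20. C/EBPβ had a peak in C57 and PWK at 24 h, with counts of 27 and 32, where 73.6% and 79.1% of the list were higher. A C/EBPβ peak in 2 or more 24 h lists and no basal list was found at 723 starts (3.29%). The numbers of lists asked for were those of Retnla itself, so the STAT6 and C/EBPβ shares are not tests either. With lists of equal length STAT6 stayed in NOD and PWK by score and in 3 strains by count, whereas C/EBPβ was lost by score and stayed in PWK alone by count.

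PU.1 and EGR2 had no peak at the Retnla promoter in any list. PU.1 peaks lay within 1 kb of 54.0% of protein-coding starts and EGR2 peaks within 1 kb of 52.0%. The Retnla promoter did hold GAGGAAGT, a core of PU.1 sites, on the reverse strand 140 bases before the start, as did 3.20% of all promoters.

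**Figure D1:**
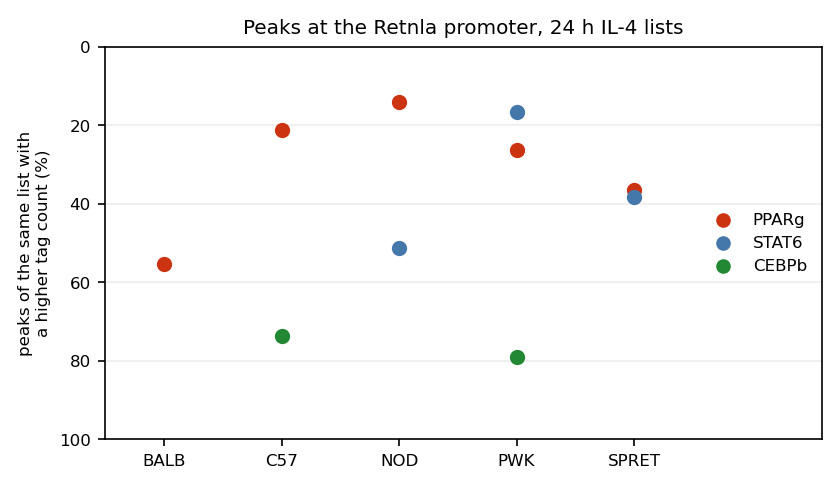
Peaks at the Retnla promoter in the 24 h IL-4 lists, 1 point for each list with a peak. The vertical axis, which runs downwards, is the percentage of peaks in the same list with a higher tag count, so that a point near the top is a high peak. PPARγ has a point in all 5 strains, STAT6 in 3 and C/EBPβ in 2, and the NOD PPARγ peak is the highest placed of these points (14.1% of its list higher).

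Near the Retnlb start, PWK alone had peaks within 1 kb. STAT6 and C/EBPβ peaks at 24 h were centred 633 and 693 bases after the start, in an intron, and both were low, with 89.5% and 81.1% of their lists higher. Neither stayed when the lists were held to equal length. No factor had a peak within 1 kb of the Retnlg start, and the closest was a basal PPARγ peak in SPRET 1.4 kb before it. A further PPARγ site lay 1.2 kb before the Retnla start, in NOD and PWK at 24 h and in PWK at basal.

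Across the whole window the 139 peaks formed 23 sites, joining peaks with centres within 500 bp. STAT6 had 24 peaks at 24 h against 9 at basal, C/EBPβ 16 against 4, PPARγ 11 against 3, PU.1 33 against 37 and EGR2 1 against 1. With lists of equal length the 24 h peaks numbered 14 by score or 16 by count for STAT6, 6 or 7 for C/EBPβ and 3 by either for PPARγ, with 9, 4 and 3 at basal, so that PPARγ no longer had more peaks at 24 h. The lists over the whole genome also grew, from 104962 to 151009 STAT6 peaks, from 114287 to 187446 C/EBPβ peaks and from 64766 to 167994 PPARγ peaks over the 5 strains. Of the STAT6 sites of the cluster 9 of 14 were in 24 h lists alone, against 34.8% of all STAT6 sites. For C/EBPβ this was 5 of 9 against 33.1%, for PPARγ 4 of 7 against 59.7%, for EGR2 1 of 2 against 41.6% and for PU.1 0 of 13 against 9.16%. On the full lists PPARγ and EGR2 were therefore near the background, and STAT6 and C/EBPβ above it on few sites. These shares were not recomputed with lists of equal length, so list length may enter them.

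STAT6 had a 24 h peak 2.8 kb after the Retnla start in BALB and NOD, with counts of 36 and 38, where 25.1% and 23.5% of the lists were higher, and this was the highest-placed STAT6 peak of the cluster in BALB. The site 40.8 kb after the Retnlg start carried C/EBPβ in C57, NOD and PWK at 24 h and in PWK at basal, with counts of 28 to 42. The site 30.4 kb before the Retnlb start carried C/EBPβ in BALB, C57 and PWK at 24 h, with counts of 39 to 45, and in PWK at basal, with a count of 40. It also carried STAT6 in C57 at basal and in PWK at 24 h, and PU.1 in 7 lists.

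Counts by strain came from lists of unequal length. At 24 h PWK held 9 STAT6 peaks of the 38679 in its list and BALB 2 of 16432, and PWK held 7 C/EBPβ peaks of 39849 and BALB 1 of 35329. The PWK PU.1 list was the shortest at 24 h, with 3 peaks of 73028. SPRET had 4 of 80580, BALB 8 of 82863, C57 9 of 90308 and NOD 9 of 99217. In C57 the 1 h and 6 h lists of STAT6, with 24376 and 23884 peaks, and of EGR2, with 13562 and 13072 peaks, held none in the window. The C57 STAT6 lists held 4 peaks at basal and 3 at 24 h, and those of EGR2 0 and 1.

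**Figure D2:**
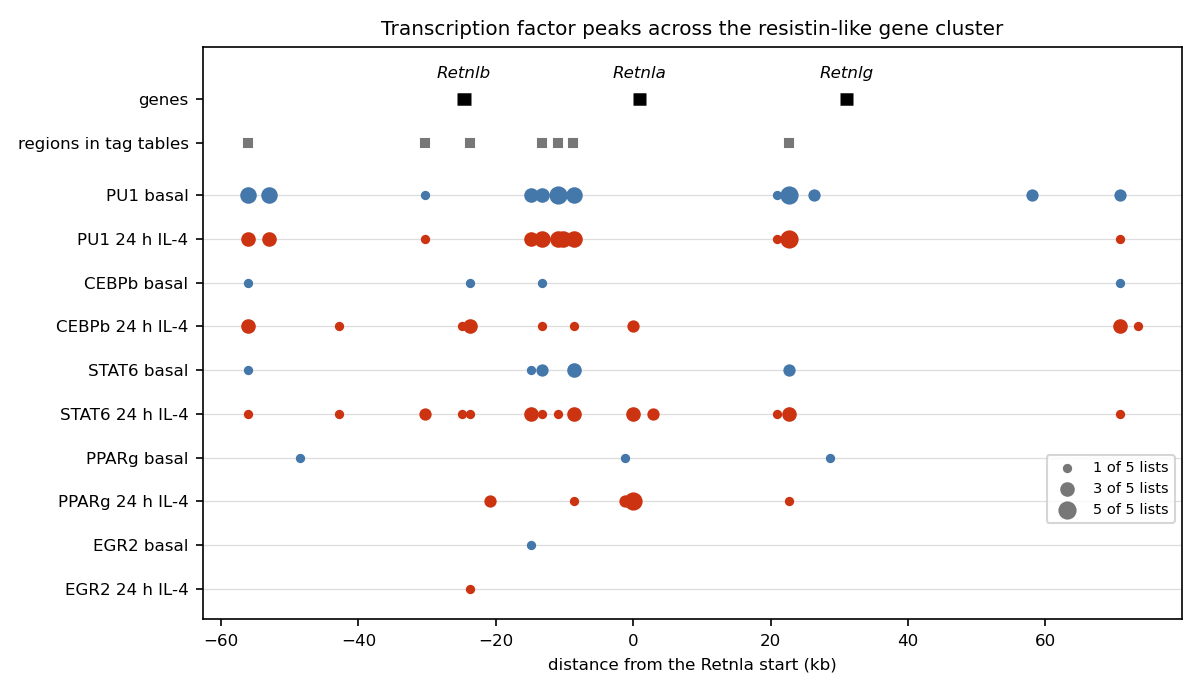
Peaks of 5 transcription factors along the cluster, as distance from the Retnla start in kb. Each dot is a site, sized by the number of the 5 strain lists that hold it, in blue for basal and red for 24 h IL-4, below the genes and the regions of the tag tables. The largest red PPARγ dot, 5 of 5 lists, sits at the Retnla start where no PU.1 or EGR2 dot lies.

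In BALB, NOD and PWK the 2 highest PU.1 peaks of the cluster stood at a pair of sites, 8.7 kb before the Retnla start and 7.4 kb before the Retnlg start. The site before Retnla was also the highest in C57, whereas in SPRET the highest PU.1 peak lay 11 kb before Retnla, with counts of 135 at basal and 92 at 24 h. The central 100 bases of the pair (mm10) are shown because they proved to be copies of each other, with GAGGAAGT in capitals.

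Before Retnla, chr16:48833754-48833853: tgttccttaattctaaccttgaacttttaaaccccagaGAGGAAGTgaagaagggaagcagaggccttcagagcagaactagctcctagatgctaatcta

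Before Retnlg, chr16:48865129-48865228: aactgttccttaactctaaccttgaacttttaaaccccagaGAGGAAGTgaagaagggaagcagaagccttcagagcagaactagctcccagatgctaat

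Lined up on the motif, these sites were identical at 97 of 100 bases and at 290 of 300, and their longest identical run within 1000 bases was 180. They lie 31.4 kb apart. Over 300 bases around each, 39.0% and 40.2% of all 50-base words recur elsewhere in the window, against 0% around the 3 gene starts and around the Retnla promoter site. Short reads from one site can be placed at the other, so the values of both sites and of the tag-table regions centred on them are uncertain, and the part of this in their values was not tested. GAGGAAGT was held by 18.4% of the central 100 bases of C57 basal PU.1 peaks.

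The PU.1 peak before Retnla was called in both conditions in BALB, C57, NOD and PWK and in neither in SPRET. Its tag count at basal and 24 h was 335 and 294 in BALB, 306 and 260 in C57, 275 and 314 in NOD, and 187 and 125 in PWK. In BALB at 24 h 3.59% of the list was higher and in PWK at 24 h 20.3%. The PU.1 peak before Retnlg was called in all 10 lists, as were 23.9% of 157109 PU.1 sites. Its count was 203 to 221 at basal and 186 to 217 at 24 h in BALB, C57 and NOD. It was lower in PWK, with 113 at basal and 87 at 24 h, and in SPRET, with 93 and 71. Each count before Retnla was above that before Retnlg of the same list, and the PWK and SPRET counts were the lowest.

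Another PU.1 site lay 10.8 kb after the Retnlb start and was called in both conditions in BALB, C57 and NOD, with counts of 149 to 209, and in no PWK or SPRET list.

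The 3 PU.1 sites also carried STAT6 peaks at basal. STAT6 was called before Retnla in C57, NOD and PWK at basal and at 24 h, and before Retnlg in C57 and NOD at basal and in C57, NOD and PWK at 24 h. After Retnlb it was called in NOD at basal and in BALB, C57 and NOD at 24 h. Before Retnla the STAT6 counts at basal and 24 h were 54 and 46 in C57, 25 and 27 in NOD, and 21 and 48 in PWK.

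In C57, none of the 3 sites overlapped a region of the C57 tag table, so no histone mark was counted there. Among C57 PU.1 peaks with at least the count of these peaks, 83.1% to 92.1% overlapped a region. BALB and NOD had a region at both copied sites, PWK at the one before Retnla alone, and SPRET at neither.

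**Figure D3:**
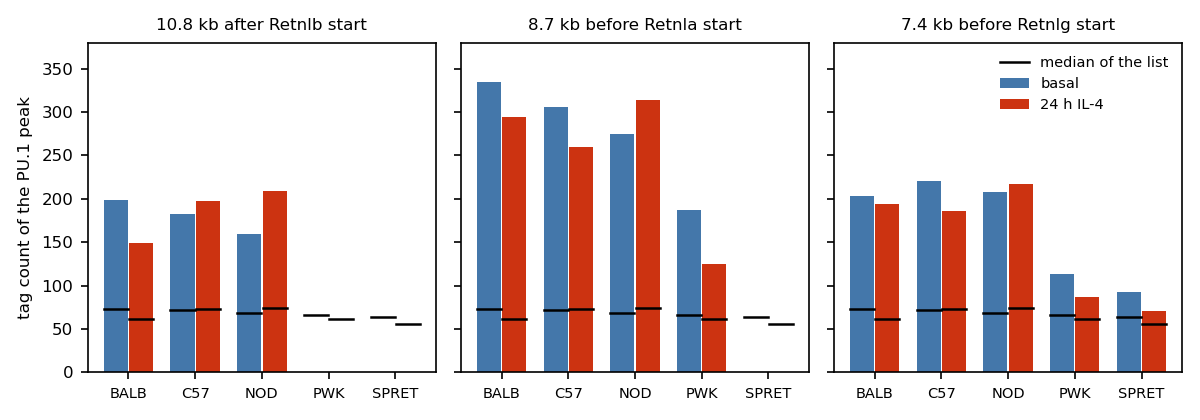
Tag counts of the PU.1 peak at 3 sites of the cluster by strain, basal in blue and 24 h IL-4 in red, with the median count of the whole list as a black line. No bar is drawn where the list has no peak. The site before Retnla reaches 335 in BALB, and in PWK both sites stand lower than in BALB, C57 and NOD.

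The 18 table rows formed 7 elements, and each strain saw a different set of them. The element 30.4 kb before the Retnlb start was in the BALB, C57, NOD and PWK tables and in the C57 time course. The one 4.7 kb before Retnlb was in PWK alone, and the one 1.9 kb after the Retnlb start, in exon 4 of Retnlb, was in C57, PWK and both C57 time courses. The one 12.4 kb after Retnlb was in NOD and SPRET, the one 11 kb before Retnla in BALB, the one 8.8 kb before Retnla in BALB, NOD and PWK, and the one 7.4 kb before Retnlg in BALB and NOD. No element was in all 5 strain tables, although 30552 elements elsewhere were, so the planned fit over 5 strains gave no value for the cluster.

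No region of the cluster changed with IL-4 by the fold rule, which asks for a 2.5-fold difference of group means plus 1 and at least 16 normalized tags, or 8 for Pol II, in either group. For H3K27ac 0 of 15 rows of the strain tables passed at 24 h, against 7.58% of all regions, for Pol II 0 of 15 against 3.87%, for H3K4me2 0 of 15 against 0.877% and for H3K4me3 0 of 15 against 0.527%. Few of these rows could have passed, since 4 of 15 reached the minimum for H3K27ac, 1 for Pol II, 5 for H3K4me2 and 0 for H3K4me3.

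The test of every region with limma gave the same count. None of the 15 rows had an adjusted p under 0.05 for any mark, against 0.729% of regions for H3K27ac, 0.723% for Pol II, 0.159% for H3K4me2 and 0.0115% for H3K4me3. With edgeR on recovered reads the background was 0.830%, 0.939%, 0.230% and 0.219%, again with 0 of 15 rows for each mark. Over the 75 tests of the cluster, time courses included, 4 had an unadjusted p under 0.05 with limma, 5 with edgeR and 2 with DESeq2. None had an adjusted p under 0.05 with any of these tools. The share of all regions under the unadjusted threshold is not given, so these counts are not read as changes.

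The highest acetylation of the cluster was at the PWK element 4.7 kb before Retnlb. H3K27ac there was 75.5 and 54.8 normalized tags at basal (65.2 ± 14.7, SD, n = 2) and 68.7 and 42.0 at 24 h (55.3 ± 18.9, n = 2), from 44 to 102 reads. The groups overlapped, and the log2 difference was -0.26 ± 0.48 (SE, limma adjusted p = 0.915). Pol II was 21.9, 11.9 and 8.33 at basal and 10.8, 11.9 and 14.5 at 24 h, a log2 difference of -0.07 ± 0.43 (limma adjusted p = 0.985). H3K4me2 averaged 65.6 ± 9.64 at basal and 64.5 ± 19.5 at 24 h. The Pol II and H3K4me2 groups overlapped too.

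Of all PWK regions, 37.1% had more H3K27ac at basal than this element and 37.4% at 24 h. PWK alone had PU.1 peaks there, in both conditions, with counts of 54 and 41, below the list medians of 66 and 61. STAT6 had a peak there at 24 h in PWK and in SPRET, where no region was listed.

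The BALB element 11 kb before Retnla was next. H3K27ac was 20.6 and 42.9 at basal (31.7 ± 15.8, n = 2) and 53.5 and 39.5 at 24 h (46.5 ± 9.84, n = 2). The higher basal library lay above the lower 24 h library, and the log2 difference was 0.61 ± 0.60 (limma adjusted p = 0.794, edgeR adjusted p = 0.435). PU.1 was called at this site in all 5 strains at basal and in all but PWK at 24 h, but only BALB had a tag-table region.

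The element in exon 4 of Retnlb carried 12.5 to 22.9 normalized tags of H3K27ac in PWK and 0 to 2.63 in C57, where the largest count was 4 reads. In PWK H3K27ac was 18.9 and 12.5 at basal and 18.9 and 22.9 at 24 h, a log2 difference of 0.41 ± 0.58 (limma adjusted p = 0.881). H3K4me2 there, in replicates 1 and 2, was 49.6 and 24.2 at basal and 67.8 and 33.5 at 24 h. The groups overlapped, though each replicate number was higher at 24 h. In C57 H3K4me2 was 4.08 and 7.04 at basal and 12.4 and 10.98 at 24 h, from 5 to 16 reads, and these groups did not overlap but the difference did not pass the test (log2 0.99 ± 0.56, limma adjusted p = 0.183). C/EBPβ had a peak in PWK in both conditions, with counts of 47 at basal and 81 at 24 h, and in NOD and SPRET at 24 h with 28 and 27.

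The NOD element 12.4 kb after Retnlb showed how far replicates could differ. H3K27ac in replicates 1 and 2 was 4.99 and 27.8 at basal and 8.68 and 23.6 at 24 h (log2 difference 0.23 ± 0.81, limma adjusted p = 0.924). Replicate 1 was thus the low and replicate 2 the high library in both groups. The remaining rows were lower: in the SPRET table H3K27ac at this element ran from 5.27 to 13.7, and the elements before Retnla and Retnlg that share the copied PU.1 sequence ran from 0 to 16.7 over BALB, NOD and PWK. H3K4me3 did not exceed 13.7 at any row of the cluster.

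**Figure D4:**
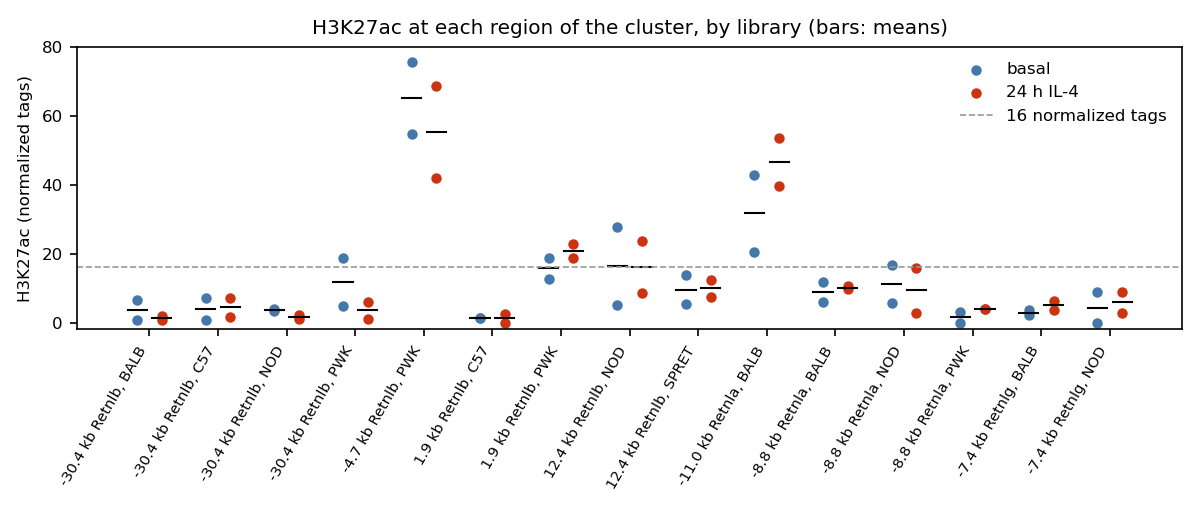
H3K27ac in normalized tags at each of the 15 regions of the cluster in the strain tables, a dot for each library, blue for basal and red for 24 h IL-4, with black bars for group means and a dashed line at 16. Only the PWK element 4.7 kb before Retnlb (65.2 and 55.3) and the BALB element 11 kb before Retnla (31.7 and 46.5) have both means well above the line.

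The element 30.4 kb before Retnlb was the one matched in BALB, C57, NOD and PWK, among 38124 elements matched in these strains, and a fit of IL-4 and strain over them was added after the data were seen. H3K27ac differed by -0.67 ± 0.44 (log2, SE, limma adjusted p = 0.231, with 38.0% of elements called), Pol II by 0.77 ± 0.32 (adjusted p = 0.126, 12.6% called) and H3K4me3 by 0.33 ± 0.38 (adjusted p = 0.543, 17.7% called), the last turning to -0.18 without C57. H3K4me2 differed by -0.20 ± 0.24 (limma adjusted p = 0.448, 63.0% called), and by 0.26 under median-ratio scaling. The median H3K4me2 change over all regions was -0.69 to -0.18 in the strain tables. None of these passed. The test for a different IL-4 effect between the strains gave a limma adjusted p of 1.00 for each mark. It called 0 of the 38124 elements for each mark, so it cannot show that the strains responded alike here. Levels were low, with H3K27ac of 0.73 and 6.55 at basal and 0.75 and 1.91 at 24 h in BALB, from 1 to 11 reads, and 18.9 and 4.70 at basal and 6.06 and 0.95 at 24 h in PWK.

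In the C57 time course 2 elements were measured, and 0 of 2 passed the fold rule at any time, against 16% of tests for H3K27ac and 5.92% for Pol II over all regions. Neither reached the minimum level. With limma 0 of 2 passed, against 5.43% and 0.445%, and with edgeR 0 of 2, against 3.23% and 0.761%. The lowest adjusted p of the cluster was for H3K27ac in exon 4 of Retnlb at 1 h. It was 1.36 and 1.43 normalized tags at basal, from 2 reads in each library, and 8.50 and 7.92 at 1 h, from 11 and 23 reads. It was 3.08 and 0.61 at 6 h and 0 and 3.94 at 24 h, so that the 1 h libraries stood above those of every other time. The log2 difference at 1 h was 1.94 ± 0.76 (limma adjusted p = 0.0956, edgeR adjusted p = 0.0839), and with a pseudocount of 5 the limma adjusted p was 0.0436. The share of all regions called with that pseudocount is not given. Pol II at 1 h was a single library with 0 reads at this element.

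The one C57 EGR2 site of the cluster was this exon 4 element. EGR2 tags there were 6.09 and 12.1 at basal, 0 and 12.5 at 1 h, 3.49 and 17.8 at 6 h, and 13.9 and 17.3 at 24 h. Both 24 h libraries lay above both basal libraries, from 31 and 18 reads against 13 and 9, while the 1 h and 6 h libraries spread over the whole range. The log2 differences from basal were -1.39, -0.07 and 0.78 at 1, 6 and 24 h, each ± 1.21 (SE, limma adjusted p = 0.841, 1.00 and 0.840). At 24 h edgeR gave 0.22 and median-ratio scaling 0.18. Over all 30675 EGR2 sites and 3 times limma called 0% and edgeR 0.00217%. At 24 h 96.1% of sites had more EGR2 tags, and the peak was near the bottom of its list, with 99.0% of peaks higher. In the other strains the only EGR2 peak of the cluster was at basal in BALB, at the PU.1 site 10.8 kb after the Retnlb start, with 96.6% of its list higher.

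**Figure D5:**
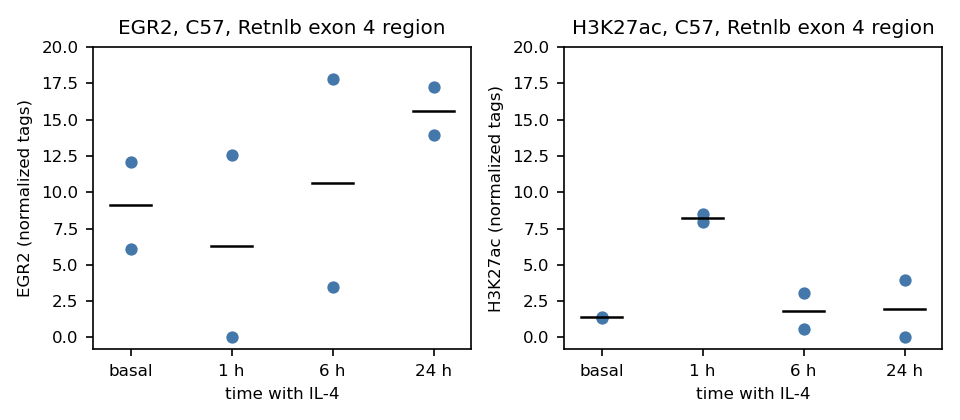
EGR2 tags (left) and H3K27ac tags (right) at the region in exon 4 of Retnlb in C57, in normalized tags against time with IL-4, a dot for each library and a bar for the mean of 2. EGR2 averages 9.09 at basal and 15.6 at 24 h with wide spread at 1 and 6 h, and H3K27ac is highest at 1 h (8.50 and 7.92).

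For comparison, promoters of 20 listed genes of alternative activation were measured in the same libraries. A region lay within 1 kb of 13 to 15 of them in the strain tables. By the fold rule H3K27ac rose at 24 h at 6 of 14 in BALB, 6 of 14 in C57, 5 of 14 in NOD, 5 of 13 in PWK and 8 of 15 in SPRET, and fell at none. Pol II rose at 9 of 14 in BALB and C57, 7 of 14 in NOD, 6 of 13 in PWK and 8 of 15 in SPRET. The limma test called 3, 0, 0, 2 and 6 of these H3K27ac promoters higher in BALB, C57, NOD, PWK and SPRET. Of the 4 nearest genes outside the cluster, Dzip3 and Cip2a had a region, which they share. It did not pass the fold rule at 24 h for H3K27ac or Pol II in any strain, and at 1 h in C57 its H3K27ac was lower by the rule, 234.8 against 88.5 normalized tags (limma adjusted p = 0.0943). This fall was not particular to that region. At 1 h the median log2 difference of H3K27ac over all regions was -0.63, and 6 of 7 macrophage promoters were lower by the rule.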

How the data were processed

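The authors aligned reads with Bowtie2, shifted reads of the other strains to mm10 with MMARGE, counted tags with HOMER and called replicated peaks by IDR (no versions are given in the labels). The signal values in the deposited tables are tags scaled by the authors to 10000000 per library, and they hold 155 matched libraries. The score and tag count of each peak are as deposited by the authors. The PPARγ lists and the EGR2 lists of BALB, NOD, PWK and SPRET have another format, with fractional counts and a score that the header does not call an IDR score, so each count is set against its own list. A further 4 columns matched no sample and were not used.

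From these, limma 3.58.1 (trend, log2 of normalized tags plus a pseudocount of 1) compared IL-4 with basal over every region, with Benjamini-Hochberg adjustment and a threshold of 0.05. Whole reads were recovered by multiplying by the library total (tolerance 0.1 read, each value of the region tables came out whole) for edgeR 4.0.16 and DESeq2 1.42.0. Tests were checked on made data with known answers. There limma over all regions called few changed regions unless low regions were left out, so edgeR is given beside it. Coordinates come from GENCODE vM21 and sequences from RefSeq and GRCm38.p6. The naming rule took the element nearest to a member start if within 1 kb. It also took elements passing the fold rule for H3K27ac or Pol II in more than 1 strain or in the C57 time course. No element met either part, and elements in the text were chosen after their values were seen. Genes, lists and rules were chosen with earlier results of these data known.

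No replicate pair was identical (75 compared). P-values measure the spread between samples, which may be technical, and intervals are limited by read counts at low regions. Equal replicate numbers deviated together in 3 fits with 3 or more pairs, Pol II in C57, PWK and SPRET (lowest r 0.118), where a replicate block changed no call. In the H3K27ac fits with 2 libraries in each group r was 0.43 in BALB, 0.47 in C57 and 0.49 in NOD. It was 0.44 in PWK and 0.26 in SPRET. Over all 23 fits checked r ran from -0.0728 to 0.492, and the main fits held no replicate block. The sequence of 1 site is not reported here.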

Additional observations from a re-analysis of the deposited data

Results flagged for a closer look

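Of 48 pairs of strains compared at the same element and mark, 2 had basal and 24 h libraries that did not overlap in either strain and lay in opposite directions, both at the element 8.8 kb before Retnla, and neither difference was tested. The share of such pairs over all elements was not counted, so 2 of 48 is not read as a difference between strains. Other pairs had log2 differences of opposite sign, but libraries that overlapped in at least 1 of the strains. H3K4me2 was higher at 24 h in BALB (5.35 to 11.02 normalized tags, log2 difference 0.85) and lower in PWK (7.41 to 4.96, -0.51). H3K4me3 was higher at 24 h in NOD (0.35 to 1.98, 1.19) and lower in PWK (1.46 to 0.41, -0.87), each from few reads. In this element 31.9% of 50-base words recur elsewhere in the window, and the part of that in these values was not tested. No library stood apart in the 4 groups large enough to test.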

How the results depend on the processing

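Of 747 alternative values for 50 results, 709 were classed as the same. For counts this means equal or close to the main count, and for tested values the same direction and side of the threshold. Fold-rule counts were 0 with few rows at the minimum level, so they had little room to move. Without the minimum level the fold rule called 1 row for H3K27ac, 2 for Pol II and 1 for H3K4me3 at 24 h, and 1 each for H3K27ac and Pol II at 1 h, each below the level the rule asks for. Leaving out 1 library moved the 24 h H3K27ac count between 0 and 1 (1 without NOD basal replicate 2 or PWK basal replicate 2) and the limma H3K4me2 count between 0 and 1 (1 without BALB 24 h replicate 1). With the replicate block limma called 1 H3K4me3 row (the C57 element 30.4 kb before Retnlb, adjusted p = 0.0332) and 1 H3K27ac row at 1 h (Retnlb exon 4, 1.94, adjusted p = 0.0274), and a pseudocount of 5 called the latter too (1 row, 1.05). The H3K4me3 row rested on 0 reads in both basal libraries and on 7 and 2 reads at 24 h. The share of all regions called under these alternative settings is not given, so their calls are not read as changes. Whether equal numbers share cells is not stated in the labels. Their deviations correlated at r 0.25 in the C57 H3K4me3 fit. In the H3K27ac time course r ran from 0.014 to 0.45. The block changed no other call.

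Leaving out 1 library moved H3K27ac of the PWK element 4.7 kb before Retnlb from -0.60 to 0.093, its Pol II from -0.37 to 0.28 and H3K27ac of the NOD element 12.4 kb after Retnlb from -0.90 to 1.37. EGR2 at exon 4 ran from -3.27 to 0.49 at 1 h and from -1.10 to 0.97 at 6 h, where edgeR gave 0.10 and a pseudocount of 5 gave 0.016. For the element in 4 strains, H3K4me2 was 0.26 under median-ratio scaling and H3K4me3 -0.18 without C57. The causes were not tested.

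Within 25 kb C/EBPβ had 2 basal and 9 24 h peaks. With lists of equal length by score or count, an alternative added after seeing the data, 24 h peaks numbered 6 or 7 for C/EBPβ, 14 or 16 for STAT6, 3 or 3 for PPARγ and 0 or 0 for EGR2, and the Retnla promoter kept 3 PPARγ peaks by either and 0 or 1 C/EBPβ peak. The 5-strain and Egr2 genotype fits had no row in the window and were not run.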
